A study of Apis mellifera with 5 samples.

Results

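The hypopharyngeal glands (HGs) of honey bee workers were compared between day 16 and day 12 after emergence, over every unigene with a read at either age. A unigene is a reference transcript put together from overlapping cDNA sequences, and a gene can have several. The comparison holds 18975 of the 20522 unigenes read in the whole series of 5 ages. Of these, 16125 were read at both ages, 1870 on day 16 only and 980 on day 12 only. A name, given by the study or by a best protein match that is often from another insect, was at hand for 4156 of them. The day 16 bees and the day 12 bees were full sisters of *Apis mellifera carnica*, daughters of a single queen inseminated with the sperm of a single drone, kept in 1 colony and marked at emergence. At each age the glands of 30 workers were pooled into 1 library, and poly(A)-selected RNA was sequenced on an Illumina HiSeq 2000. Neither group received a treatment, and age is the one difference that the labels give. Since each age is 1 pool of 1 colony, no difference has a replicate check, and age cannot be told apart from what else differed between the libraries.

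The HGs are paired glands in the head of the worker, made of many secretory acini on a duct. In nurse bees they secrete the proteins of royal jelly (RJ), the food of larvae and of the queen, and most of that protein belongs to the major royal jelly proteins (MRJPs), a family derived from the Yellow proteins of insects. In older workers, which handle nectar and later forage, the glands shrink and are known for enzymes of honey making such as α-glucosidase. The comparison asks what differs in gland RNA between the late nursing period and the age at which this change of task approaches.

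The day 16 library held 1815654 unique reads, that is, reads that match 1 unigene alone, and the day 12 library held 1344138. Ratios below are log2 ratios of RPKM (unique reads per kilobase of unigene, scaled to a library of 1000000 unique reads), day 16 over day 12, and the 95% interval beside a ratio is the exact one of Clopper and Pearson, which takes in counting error alone. Unigenes were called higher or lower by the test of Audic and Claverie on the unique reads, where the false discovery rate (FDR), adjusted over all 18975 unigenes, was 0.001 or less and the log2 ratio reached 1 in either direction. This test compares the reads of these libraries, not the ages, and "rose" and "fell" below stand for such calls only. In pooled tissue, fewer cells of a type and less RNA per cell cannot be told apart.

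Transcripts of the gland's own product led both libraries: TC24109, the study's mrjp2, had 37832 RPKM on day 16 and 81166 RPKM on day 12, the highest level of either library. Transcripts with names linked to other tissues were also read. The 68 unigenes with names of sarcomere and muscle proteins summed to 9610 RPM (unique reads scaled to 1000000 per library) on day 16 and 10036 on day 12. Lists for other cell types, in RPM on day 16 and then on day 12, summed to 106 and 92.3 for neurons, 12.7 and 15.6 for fat body, 73.3 and 55.1 for photoreceptors, 267 and 141 for antenna and chemosensory proteins, and 353 and 176 for haemocytes. These lists are search words and take in names that do not mark the cell type. Scavenger receptor matches held 144 (NP9553348) and 25.9 RPM (NP9553432) of the haemocyte sum on day 16. The photoreceptor list takes in the channels pyrexia and V member 6, and the fat body list a vitellogenin receptor match. The sums therefore do not show which cells were present. The named fat body transcripts were at or near 0, with 0 reads on day 16 and 1 read on day 12 for vitellogenin. Most names belong to unigenes below 10 RPKM on day 3, so these sums cover low transcripts, and abundant ones of other tissues may be present without a name. The cuticle list summed to 5243 RPM on day 16 and 1876 on day 12. Most of it lay in the laccase 2 match described below, which is to a protein of another insect. The part of these tissues in the results was not tested.

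The study's qPCR primers for a pair of the unigenes described below are shown because they mark, by sequence, which stretch of an MRJP transcript and of a muscle transcript was assayed. Both primers of a pair are written 5′ to 3′. The mrjp7 product is 152 bases long and the titin product 130 bases. The qPCR values themselves were not used here, and the values below come from the libraries alone.
TC13222 (mrjp7) forward: agattgtgggttttggactcag
TC13222 (mrjp7) reverse: cttccctgttctgtggtggtat
TC22830 (titin) forward: cagttcagatggtgacaaatcg
TC22830 (titin) reverse: ggtaacattcagggcgaaag

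Among all 18975 unigenes, 442 (2.33%) were called higher on day 16 and 142 (0.748%) lower, 3.08% in all. The sets differed in level and in how many have a name. Those called higher mostly had moderate levels, with a median of 36.2 RPKM on day 16 and 13.4 RPKM on day 12, and only 44 of them carry a name. Those called lower had a median of 55.7 RPKM on day 16 and 182 RPKM on day 12, and 49 carry a name. The higher set took 17.2% of the unique reads on day 16 and 6.04% on day 12, while the lower set took 10.7% on day 16 and 25.01% on day 12. A change of more than 4-fold was seen in 66 of the higher and 29 of the lower unigenes.

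The split between directions depended on how the libraries were scaled. By the total of unique reads, 75.7% of the calls were higher. With TMM factors every log2 ratio was lower by 0.13, and the calls were 301 higher and 218 lower, 58.0% higher. DESeq2's size factors lowered every ratio by 0.15, which gave 291 higher and 225 lower. With totals of all mapped reads in place of unique reads, every ratio was higher by 0.47, and 1484 were called higher and 38 lower. By fold alone, 1660 (13.2%) of the 12530 unigenes with 10 or more reads were at a log2 ratio of 1 or above and 680 (5.43%) at -1 or below. Over these 12530 the log2 ratio had a median of 0.15, and over the 2069 named ones of 0.23. Gene lists are therefore given relative to the second of these.

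**Figure D1:**
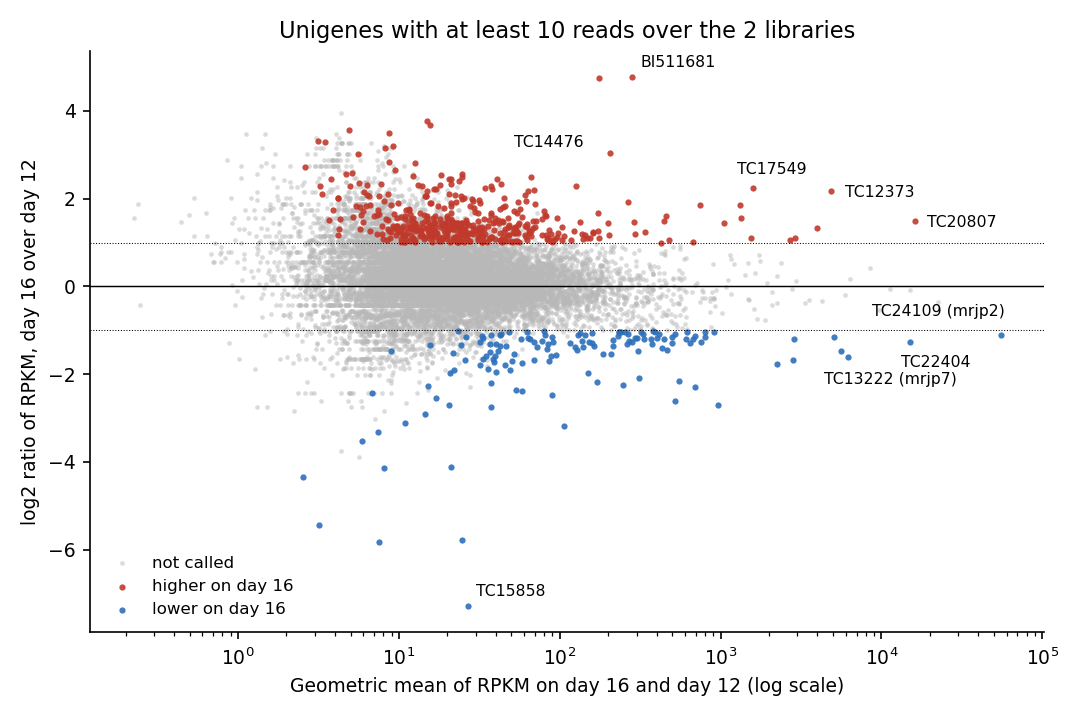
Each point is 1 unigene with at least 10 reads over the day 16 and day 12 libraries, with the geometric mean of its RPKM at both ages on the x axis (log scale) and its log2 ratio of RPKM, day 16 over day 12, on the y axis. Red points were called higher on day 16, blue points lower and grey points neither, the dotted lines mark log2 ratios of 1 and -1, and TC24109 (mrjp2) lies farthest to the right at -1.10.

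Across the 5 ages the called unigenes followed different courses. Of the 442 higher on day 16, 199 had their highest RPKM on day 16 and 192 on day 3, and 344 had their lowest on day 12. Thus many were low on day 12 rather than high on day 16 alone. Of the 142 lower on day 16, 67 were highest on day 9 and 39 on day 12, and 112 were lowest on day 16. Because the day 16 and day 12 values are those of the comparison itself, the courses are given as a description.

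The ratio also moved with the length of the unigene. Of the 4232 unigenes with at least 100 reads, 9.05% were called higher and 2.58% lower. Among them the median log2 ratio was -0.10 under 500 bases (n = 271), -0.03 from 500 to under 1000 bases (n = 1028), 0.13 from 1000 to under 2000 bases (n = 1279), 0.37 from 2000 to under 4000 bases (n = 1230) and 0.67 from 4000 bases on (n = 424). In the longest class 111 were called higher and 0 lower, and under 500 bases 12 were called higher and 19 lower. The called unigenes of that depth had a median length of 2703 bases when higher and 730 bases when lower. When each ratio was instead centred on the median of its length class, a setting chosen after the values were seen, 188 unigenes were called higher and 210 lower. What the length trend stems from was not tested. Where a unigene named below was no longer called with length classes centred, this is stated beside it.

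**Figure D2:**
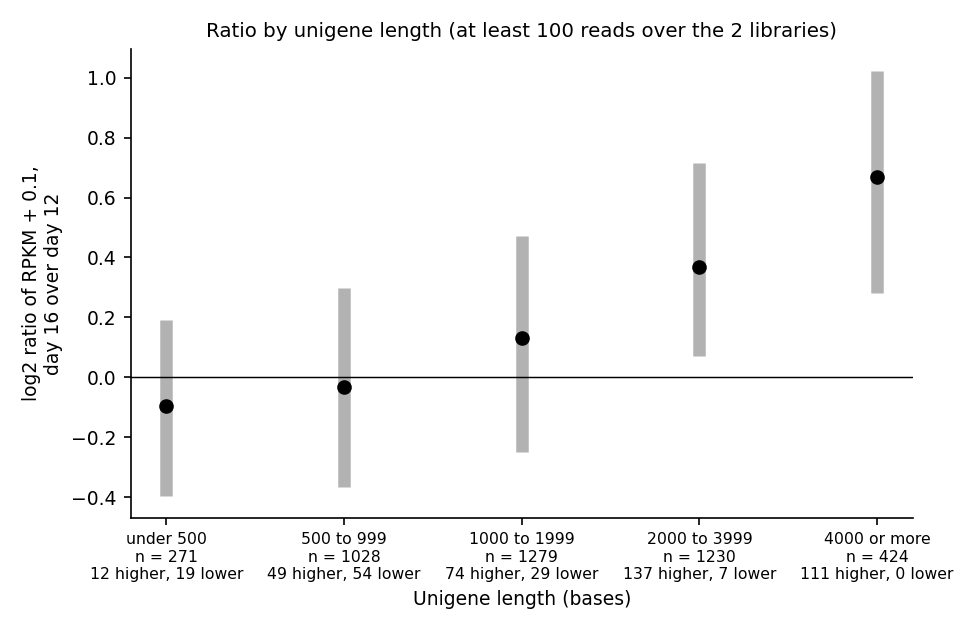
Black points are the median log2 ratio of RPKM plus 0.1, day 16 over day 12, of unigenes with at least 100 reads over both libraries, by length class in bases on the x axis, and grey bars span the quartiles. The median climbs with length, -0.10 in the shortest class and 0.67 in the longest, where 111 unigenes were called higher and 0 lower.

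The royal jelly proteins took a smaller share of the reads on day 16. The 31 unigenes so named held 6.60% of the unique reads on day 16 (95% interval 6.57 to 6.64) and 14.4% on day 12 (14.3 to 14.5). TC24109, mrjp2, a main protein of RJ, had 108872 reads on day 16 and 172920 reads on day 12, a log2 ratio of -1.10 (-1.11 to -1.09). TC13222, mrjp7, had 9119 reads on day 16 and 18677 reads on day 12, and its ratio was -1.47 (-1.50 to -1.43). These 2 of 31 unigenes were called lower and 0 higher. They hold nearly all reads of the list: without them its share was 0.103% on day 16 and 0.146% on day 12. Both calls were lost with the study's mapped totals, where the ratios were -0.63 for TC24109 and -0.99 for TC13222. Both were also lost when a spread between pools was assumed, as described below for the ribosomal proteins. With TMM factors, DESeq2's size factors and length classes centred, both calls were kept.

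The smaller MRJP unigenes mostly pointed the same way but had few reads. Of the 19 with at least 10 reads besides TC24109 and TC13222, 16 had a ratio below 0, and the median relative to the named unigenes was -1.64 (-1.97 to -1.01, the order-statistic interval of the median over members, as for the lists below). A second mrjp2 unigene, BP540149, had 1193 reads on day 16 and 1509 reads on day 12, a ratio of -0.77 (-0.88 to -0.66) that was not called. TC13158, named for mrjp1, the monomer known as royalactin, had 16 reads on day 16 and 30 on day 12, TC22243 (mrjp2) had 10 on day 16 and 25 on day 12, and TC12751 (mrjp4) had 3 on day 16 and 16 on day 12. None of these was called at this depth. TC13158 and TC22243 were picked after their values were seen.

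A pair of MRJPs that are not known as main proteins of RJ had a higher RPKM on day 16. TC12355, mrjp9, had 525 reads on day 16 and 213 reads on day 12, a ratio of 0.87 (0.64 to 1.10), below the 2-fold threshold. At ages 3, 6, 9, 12 and 16 days it had 1.77, 7.24, 37.3, 158 and 289 RPM. TC12413, mrjp8, had 38 reads on day 16 and 17 reads on day 12, with an interval of -0.13 to 1.64 that includes 0. MRJP genes share much sequence and reads matching several unigenes were not counted, so these values rest on the reads that tell the copies apart: the unique reads covered 43.7% of TC24109 in both libraries.

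The Yellow family, from which the MRJPs descend, had 2 of 10 unigenes called lower and 0 higher, against 1.18% and 1.06% of all named unigenes. The list did not share a direction, with a median of 0.07 relative to the named unigenes and 4 of 7 ratios above 0. The search word also takes in regulators of the yellow gene that are not Yellow proteins. Among those not called, TC12331, yellow-h, had 21 reads on day 16 and 5 reads on day 12, a ratio of 1.64 (0.19 to 3.40). The 2 called lower were TC14541 and TC12417. TC14541, named as yellow-e2 or yellow-e3, had 7 reads on day 16 and 25 reads on day 12, a ratio of -2.27 (-3.72 to -1.02). Its name is from the paper, which picked it from these same libraries as expressed only on day 9. TC12417, matched to yellow-e3, had 36 reads on day 16 and 67 reads on day 12, a ratio of -1.33 (-1.96 to -0.72). A transcript annotated as hypopharyngeal gland-specific protein, TC16133, fell to 7 reads on day 16, against 45 reads on day 12, a ratio of -3.12 (-4.51 to -1.96).

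Several of the most abundant unigenes carry no name, and some of them shifted by a large part of the library, though by less than TC24109. TC20807 had 124345 reads on day 16 and 32730 reads on day 12, a ratio of 1.49 (1.47 to 1.51), and on day 16 it had more reads than any other unigene. TC12373 had 37075 reads on day 16 and 6066 reads on day 12, a ratio of 2.18 (2.14 to 2.22), and 93.3% of its length was covered on day 16. TC12389 had 17444 reads on day 16 and 5125 reads on day 12, a ratio of 1.33. All 3 were called higher. On day 9 their levels still lay far apart, 1038 RPKM for TC20807, 57.9 RPKM for TC12373 and 876 RPKM for TC12389.

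Others of this kind fell with TC24109. TC22404 had 33316 reads on day 16 and 59072 reads on day 12, a ratio of -1.26, with 18.7% of its length covered on day 16. TC12375 had 10506 reads on day 16 and 23816 reads on day 12, a ratio of -1.61. BP539811 and TC14978 had ratios of -1.77 and -1.67. TC12344, also abundant, had 53085 reads on day 16 and 41643 reads on day 12, which is a ratio of -0.08 by unique reads and of 0.39 by the study's mapped totals. TC24109 and TC22404 together took 7.83% of the unique reads on day 16 and 17.3% on day 12, and TC20807 and TC12373 took 8.89% on day 16 and 2.89% on day 12. Without these 4 unigenes in the totals and the test, which was tried after their values were seen, 365 were called higher and 174 lower.

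Proteins of the cytosolic ribosome formed the largest block of named unigenes that fell. Of 77 unigenes with such names, 37 (48.1%) were called lower and 0 higher, against 1.18% of the 4156 named unigenes called lower. That share is itself made up mostly of these 37, out of 49 named unigenes called lower. Among all unigenes with at least 100 reads, 2.58% were called lower. The interval lay wholly below 0 for 68 of the 77 ribosomal unigenes, and 70 of the 77 had their lowest RPKM of the 5 ages on day 16. Set against the named unigenes, the median of the ribosomal ones was -1.28 (-1.36 to -1.20, n = 70 with at least 10 reads). Their summed share of the library was 2.39%, 2.78%, 2.96%, 2.20% and 1.07% at ages 3, 6, 9, 12 and 16 days. Most of these names come from a list that the study drew from these same libraries, so their shared direction is not independent evidence.

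Both subunits took part. In the study's list, 21 of 44 unigenes of the large subunit and 16 of 25 of the small subunit were called lower, with medians relative to all unigenes of -1.18 and -1.23. All 69 ratios were below 0. TC14117, L7Ae of the large subunit, had 866 reads on day 16 and 1462 reads on day 12, a ratio of -1.19 (-1.31 to -1.07). TC12663, S6e of the small subunit and a known substrate of S6 kinase, had 984 reads on day 16 and 1486 reads on day 12, a ratio of -1.03 (-1.15 to -0.91). TC12633, L23Ae, had 696 reads on day 16 and 1127 on day 12, a ratio of -1.13.

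The stalk of the large subunit, which recruits translation factors, was among them. TC12969, LP0, had 397 reads on day 16 and 686 reads on day 12, a ratio of -1.22, and TC18608, LP1, had 295 reads on day 16 and 581 on day 12, a ratio of -1.41 (-1.62 to -1.21). TC14202, SAe of the small subunit, had 250 reads on day 16 and 535 on day 12, a ratio of -1.53 (-1.75 to -1.31). L32e (TC20305) and L28e (TC21122) had ratios of -1.73 and -1.45 on fewer reads, 20 and 68 on day 16 against 49 and 138 on day 12.

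**Figure D3:**
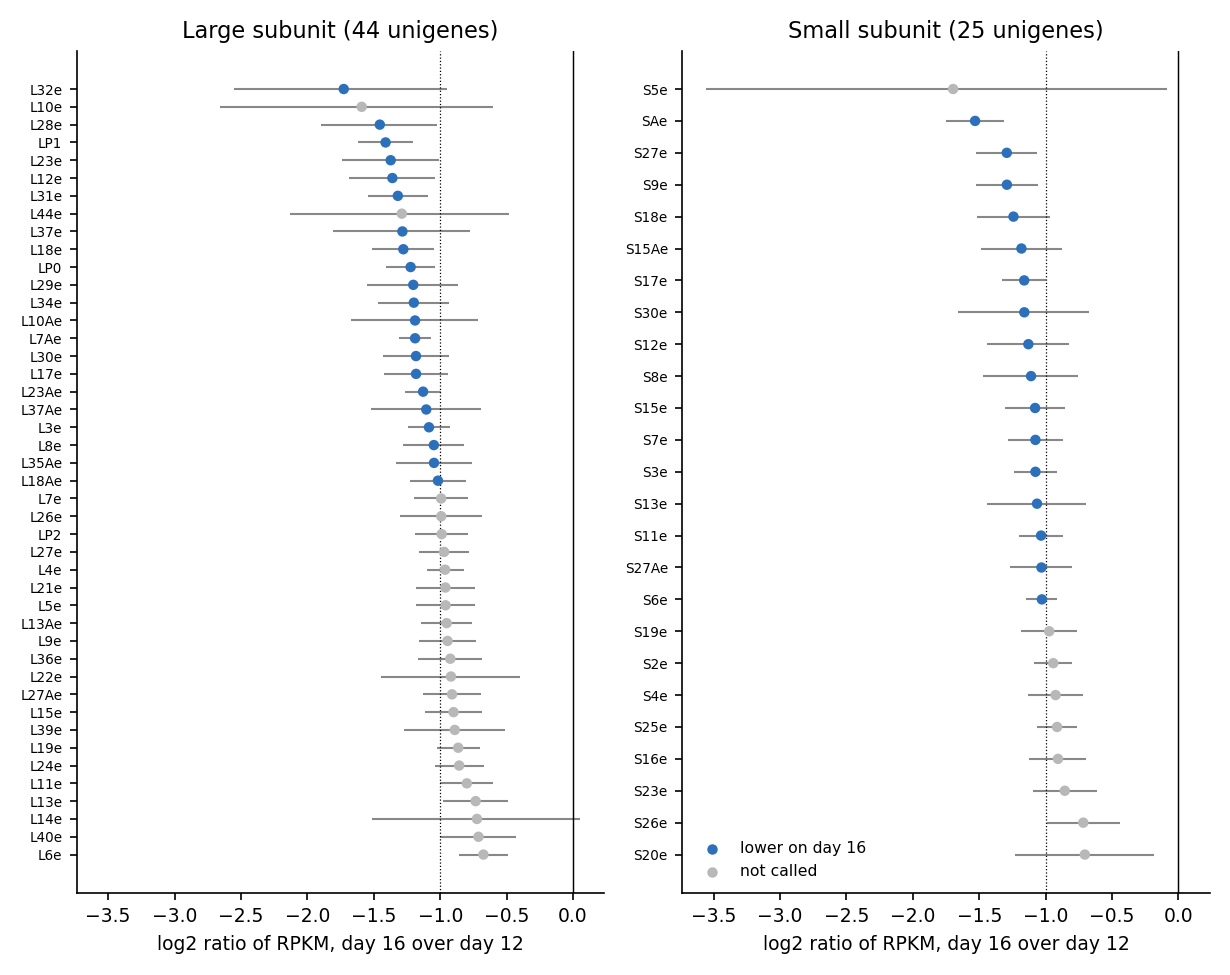
Log2 ratios of RPKM, day 16 over day 12, of the 44 large subunit and 25 small subunit unigenes in the study's list, ordered by ratio, with 95% exact intervals that cover counting error only. Blue points were called lower, 21 in the large and 16 in the small subunit, and all 69 lie left of 0, close to the dotted line at -1 that marks a 2-fold difference.

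Because most of these ratios lie near the 2-fold line, the number called depended on the scaling. It was 56 of 77 with TMM factors, 59 with DESeq2's size factors, 1 with the study's mapped totals and 0 when a spread between pools was assumed (a coefficient of variation of 0.2 in edgeR). Ribosomal unigenes are short, with a median of 654 bases, but centring on length classes left 50 of 77 called lower and a median of -1.12. Among 4 other lists of the translation machinery, none had a call in either direction. At the share over all named unigenes (1.06% higher, 1.18% lower) they would hold few. The 23 unigenes of ribosome biogenesis and the nucleolus had a median of -0.89 (n = 19), the 12 mitochondrial ribosomal proteins -0.90 (n = 7), the 25 translation factors 0.07 (n = 11) and the 13 aminoacyl-tRNA synthetases -0.20 (n = 5). The few names of elongation factors include factors of transcription that share the term.

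The lists of the secretory pathway held no call, and at the share over all named unigenes (1.06% higher, 1.18% lower) they would hold few. None of 70 unigenes of vesicle traffic and none of 19 of protein processing in the endoplasmic reticulum passed the test, and their medians relative to the named unigenes were -0.14 and 0.03. The test was likewise passed by none in oxidative phosphorylation (0 of 16 called), glycolysis and the citric acid cycle (0 of 15), heat shock proteins (0 of 9) and the ubiquitin pathway (0 of 53). At these list sizes a count of 0 says little about the pathway. The names of these lists come mainly from unigenes below 10 RPKM on day 3, and abundant members of the pathways are mostly missing from them.

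The list searched for carbohydrate enzymes of honey making had 2 of 37 unigenes called lower and 0 higher, against 1.18% and 1.06% of all named unigenes. Its search words also take in enzymes of other roles, and neither called member is clearly an enzyme of honey making. Of the 49 named unigenes called lower, 37 were cytosolic ribosomal proteins. Both called enzymes are named by the paper, which picked them from these same libraries as expressed on day 12. Their direction is therefore not independent evidence. The list had no common direction: 2 intervals lay wholly below 0 and 6 wholly above it. BP539841 is named as a glucose oxidase in one place of the paper and as a phospholipase in another. It had 77 reads on day 16 and 272 reads on day 12, a ratio of -2.25 (-2.64 to -1.89). TC19526, a glucocerebrosidase, which splits glucosylceramide, had 57 reads on day 16 and 127 on day 12, a ratio of -1.59 (-2.07 to -1.13). A glucose dehydrogenase match, TC13216, had 347 reads on day 16 and 138 reads on day 12, a ratio of 0.90 (0.61 to 1.19) that was not called. Uncalled at this depth, but with intervals above 0, were also DB772014, an α-amylase, which breaks down starch, with 18 reads on day 16 and 2 reads on day 12, and NP9552746, another glucose dehydrogenase, with 45 and 11 in the same order. NP9553382, a glucohydrolase, had 52 reads on day 16 and 16 reads on day 12. Their ratios were 2.74, 1.60 and 1.27. DB772014, NP9552746 and NP9553382 are named by the paper, which picked them from the same libraries as expressed on day 16. Outside the list, TC15395, which the study calls an exonuclease, fell to 79 reads on day 16, against 217 on day 12, a ratio of -1.89. The study picked it, too, from these libraries as expressed on day 12.

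The named unigenes that rose were spread over many functions, 44 of 4156 (1.06%), and they included several matches to secreted enzymes. TC13781 matches laccase 2 of *Nephotettix cincticeps*, another insect. Laccase 2 is a phenol oxidase that hardens insect cuticle, and whether TC13781 does so was not tested. TC13781 had 8797 reads on day 16 and 2207 reads on day 12, a ratio of 1.56 (1.49 to 1.63). At ages 3, 6, 9, 12 and 16 days its RPKM was 6.95, 14.6, 159, 775 and 2285. TC14476, matched to a venom acid phosphatase precursor of the honey bee, had 2022 reads on day 16 and 182 reads on day 12, a ratio of 3.04 (2.82 to 3.27). Another unigene with that name, TC12438, had 76 reads on day 16 and 5 reads on day 12, a ratio of 3.49 (2.21 to 5.16). One more acid phosphatase match, TC18058, had 153 reads on day 16 and 39 on day 12. The calls of TC14476 and TC12438 were kept when a spread between pools was assumed. The acid phosphatase TC18058 is named after its value was seen.

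Cytochrome P450 enzymes, haem oxidases that act on lipids, hormones and plant compounds, changed in both directions: of 26 unigenes, 3 were called higher and 2 lower, against 1.06% and 1.18% of all named unigenes, and the median was 0.44 (n = 15). TC16088, matched to P450 6AS5, had 197 reads on day 16 and 39 reads on day 12, a ratio of 1.90 (1.40 to 2.44). NP9545948, a 6a14 match, had 74 reads on day 16 and 6 on day 12, and NP9553652, a 305a1 match, had 44 on day 16 and 4 on day 12, with ratios of 3.19 and 3.03. TC14444, similar to 6a13, went the other way with 113 reads on day 16 and 433 reads on day 12, a ratio of -2.37 (-2.68 to -2.07), and was also called with an assumed spread. TC16369, a 6a2 match, had 5 reads on day 16 and 28 on day 12. A second 6AS5 unigene, TC12392, had 259 reads on day 16 and 109 on day 12, a ratio of 0.81 that was not called, and copies of one P450 subfamily may share reads.

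Lipid enzymes were called in 2 of 47 unigenes (4.26%, against 1.06% of all named unigenes and 2.33% of all unigenes called higher), both higher. TC14207, a fatty acyl-CoA reductase, which makes fatty alcohols, had 387 reads on day 16 and 76 reads on day 12, a ratio of 1.91 (1.56 to 2.29). TC14076, matched to an elongase of very long chain fatty acids, had 134 reads on day 16 and 22 on day 12, a ratio of 2.17 (1.52 to 2.90). TC14308, a carboxylesterase, an enzyme class that hydrolyses esters, had 337 reads on day 16 and 93 reads on day 12, a ratio of 1.42 (1.09 to 1.77). It was the only one of 33 detoxification transferases, esterases and peroxidases called (3.03%, against the same 1.06% and 2.33%). A match to circadian clock-controlled protein, TC14824, and one to an α-tocopherol transfer protein, TC22318, had ratios of 1.59 and 1.55, with 375 and 328 reads on day 16 against 92 and 83 on day 12. TC14824 and TC22318 were picked after their values were seen.

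The called unigenes of the haemocyte, chemosensory and transporter lists were all higher on day 16. NP9553348 and NP9553432, both matched to scavenger receptor class B member 1, a lipid and lipoprotein receptor, had 261 and 47 reads on day 16 against 82 and 9 on day 12, with ratios of 1.24 and 1.95. A lysosome membrane protein of the same receptor family, NP9549090, had 142 reads on day 16 and 41 on day 12, a ratio of 1.36. TC12570, odorant binding protein 16, one of the small carriers of hydrophobic molecules, had 244 reads on day 16 and 75 reads on day 12, a ratio of 1.27 (0.89 to 1.66).

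Of 129 membrane transporters, 3 were called higher and 0 lower (2.33%, against 1.06% of all named unigenes and 2.33% of all unigenes called higher). They were TC15513, an ABC transporter of family G, with 371 reads on day 16 and 107 reads on day 12, TC17025, a monocarboxylate transporter match, with 119 and 34 reads in the same order, and TC12374, the dopamine transporter, with 116 and 41. Their ratios were 1.36, 1.37 and 1.07. With length classes centred the ratio was 0.99 for TC15513 and 0.91 for TC12374, and TC17025 was the only one of the 3 still called. The call of TC12374 was also lost with TMM factors (0.93). So was that of the scavenger receptor NP9553432, whose ratio of 1.82 then had an adjusted p of 0.0029 in Audic and Claverie's test, and which was not called with length classes centred either.

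**Figure D4:**
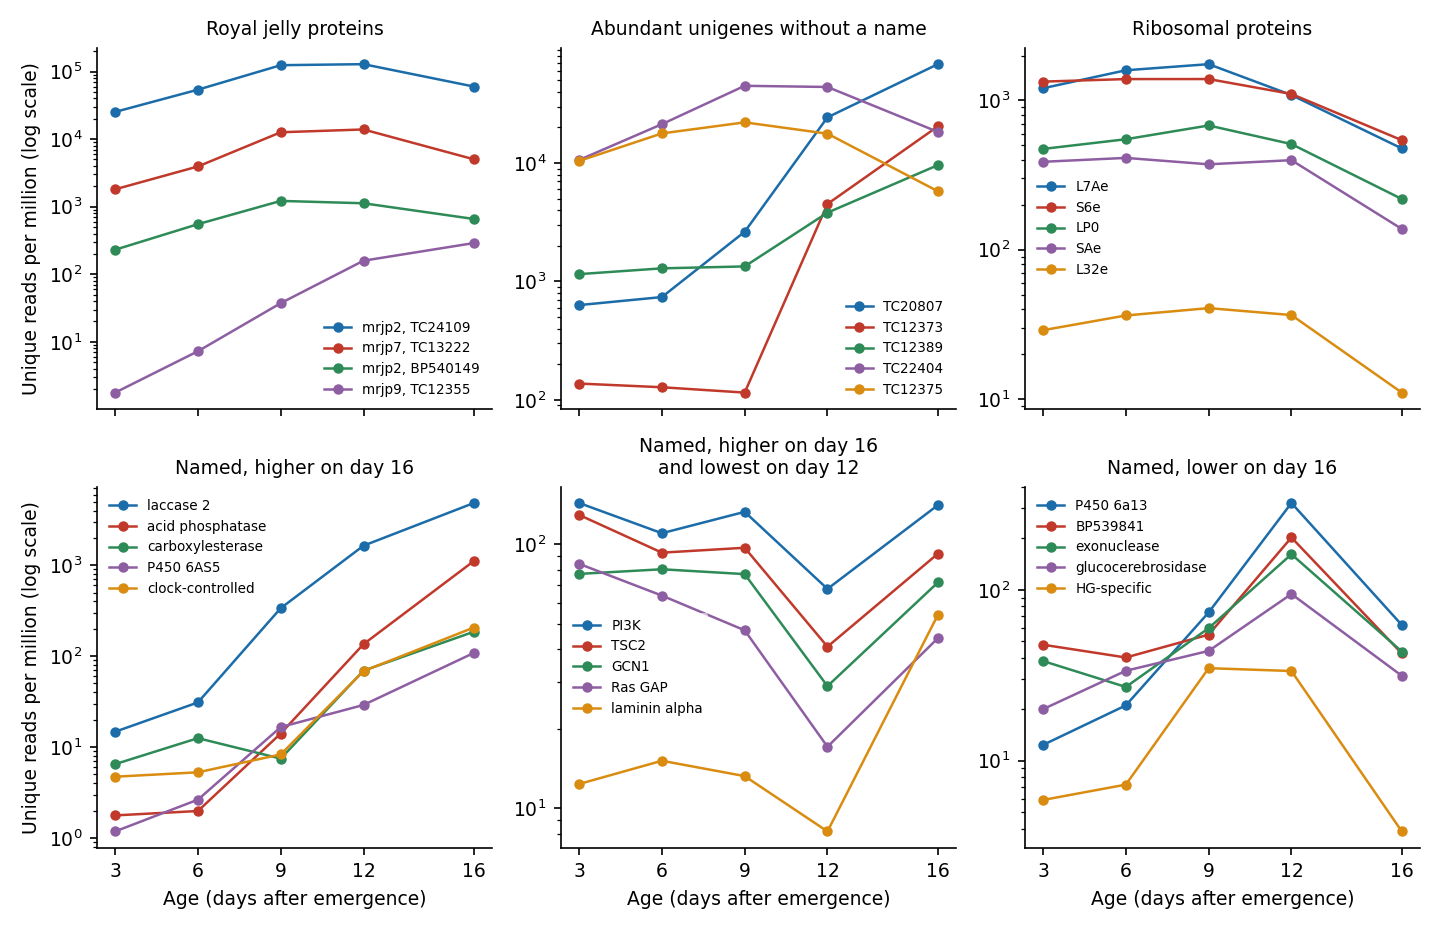
RPM (unique reads scaled to 1000000 per library, log scale) at ages 3, 6, 9, 12 and 16 days for unigenes of the main groups, each point 1 pooled library and the lines only joining the points. TC24109 (mrjp2) and TC13222 (mrjp7) peak on day 12 and BP540149 (mrjp2) on day 9, and each is lower on day 16 than on day 12. Ribosomal proteins are lowest on day 16, the laccase 2 match climbs to day 16, and PI3K and TSC2 (TC14039) are lowest on day 12.

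Growth signalling through insulin and TOR, the kinase cascade that couples nutrition to protein synthesis, was described by a list of 10 unigenes in the study, of which 2 were called higher and 1 lower. Over all unigenes 2.33% were called higher and 0.748% lower. TC13873, PI3K, the lipid kinase below the insulin receptor, had 255 reads on day 16 and 91 reads on day 12, a ratio of 1.05 (0.70 to 1.41). TC14039, TSC2, an inhibitor of TOR, had 167 reads on day 16 and 55 reads on day 12, a ratio of 1.17 (0.72 to 1.63). The list holds another TSC2 unigene, NP9546367, which was not called. It had 141 reads on day 16 and 87 reads on day 12, a ratio of 0.26 (-0.13 to 0.67). The one called lower was S6e, described above. For AKT (TC15907) the reads were 251 on day 16 and 101 on day 12, for Raptor (TC13681) 190 and 71, and for mTOR itself (TC20981) 127 and 48, with ratios of 0.88, 0.99 and 0.97 that were not called. TC13160, HIF1α, had a ratio of 0.32 (0.07 to 0.57).

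These transcripts are long, with a median of 3824.5 bases over the 10. With length classes centred, PI3K had a ratio of 0.39, the TSC2 unigene TC14039 0.51 and HIF1α -0.051, and none of the 3 was called. The call of PI3K was also lost with TMM factors and with DESeq2's size factors, which lower every ratio by 0.13 and 0.15. The levels of PI3K and TC14039 were also no higher on day 16 than at the start of the series. They were 34.2 RPKM on day 16 and 34.8 on day 3 for PI3K, and 17.9 on day 16 and 25.04 on day 3 for TC14039.

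Several other long transcripts shared this course, with the lowest level on day 12. TC19830, matched to the translational activator GCN1, had 130 reads on day 16 and 39 reads on day 12, TC23940, a leucine-rich repeat kinase, had 168 and 52, and TC18617, similar to crumbs, an organiser of the apical cell surface, had 201 and 63. Their ratios were 1.30, 1.26 and 1.24, and none was called once length classes were centred. TC19830 and TC18617 were picked after their values were seen. A Ras GTPase activator, TC17753, had 80 reads on day 16 and 23 on day 12, a ratio of 1.36 whose call was lost with TMM factors and with length classes centred.

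Cell adhesion proteins had a median of 0.72 (0.05 to 1.11, n = 21), or 0.33 with length classes centred. Of 43, 1 was called (2.33%, against 1.06% of all named unigenes and 2.33% of all unigenes called higher). That was TC18871, a laminin α subunit of the basement membrane, with 98 reads on day 16 and 11 reads on day 12, a ratio of 2.72 (1.82 to 3.77) on a transcript of 8113 bases. It stayed called with length centred. TC12391, the Krüppel-like protein 1 of the honey bee, a zinc finger factor, had 117 reads on day 16 and 20 reads on day 12, a ratio of 2.11 (1.42 to 2.88). NP9546606, a match to a regulatory factor X domain protein, had 65 reads on day 16 and 8 on day 12, a ratio of 2.59. Of 146 protein kinases, 2 were called higher and 0 lower (1.37%), close to the 1.06% of all named unigenes.

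Muscle proteins changed unequally. Of 68 unigenes, 5 were called higher (7.35%, against 1.06% of all named unigenes) and 1 lower (1.47%, against 1.18%). These shares depend on depth. Over named unigenes with at least 10 reads, 2.13% were called higher and 2.37% lower. Over all unigenes with at least 100 reads, it was 9.05% and 2.58%. The median of the muscle list relative to the named unigenes was -0.21. Of its 50 ratios with at least 10 reads, 25 lay below 0 and 25 above it. Abundant sarcomere proteins differed little: TC14580, paramyosin, had 5172 reads on day 16 and 4059 on day 12, a ratio of -0.08, TC15188, a myosin regulatory light chain, -0.26, TC13807, tropomyosin, -0.26, and NP1608872, troponin T, -0.44 (-0.53 to -0.34). None was called, and by the study's mapped totals these 4 ratios were above 0.

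Most of the called muscle unigenes were matches to giant proteins of the sarcomere. NP9553226, matched to titin, had 446 reads on day 16 and 68 reads on day 12, a ratio of 2.28 (1.91 to 2.67), and its call was kept with an assumed spread. TC20547, a match to the M-line protein unc-89, had 328 reads on day 16 and 57 reads on day 12, a ratio of 2.09 (1.68 to 2.52). The short titin matches CK629392 and BI503814 had 57 and 61 reads on day 16 and 8 reads each on day 12, with ratios of 2.40 and 2.50. TC20605, matched to myosin-Ie, a myosin that is not part of the sarcomere, had 27 reads on day 16 and 2 on day 12, and its call was lost with TMM factors and with length classes centred.

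Other titin matches went the other way. TC23914 had 55 reads on day 16 and 109 reads on day 12, a ratio of -1.42 (-1.92 to -0.94), and was called lower. TC22830, the titin unigene whose primers are given above, had 246 reads on day 16 and 304 reads on day 12, a ratio of -0.74 (-0.99 to -0.49) that was not called. Unigenes named for titin are best matches to parts of a protein family with many like domains, so they need not come from 1 gene. Whether NP9553226, CK629392 and BI503814 are parts of 1 transcript was not tested.

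The study sorted unigenes by their course over the same 5 libraries into a group that matched gland activity (M, 29 unigenes) and one that ran opposite to it (R, 24 unigenes). Every M ratio was below 0 and every R ratio above 0, which that sorting favours, so the direction is not independent evidence. Of the M group, 2 were called lower (TC24109 and TC13222) and 0 higher, with a median relative to all unigenes of -0.49. Both calls were lost with the mapped totals and with the assumed spread, as given above for the royal jelly proteins. Of the R group, 1 was called higher and 0 lower, with a median of 0.17. That one was TC15513, whose call was lost with length classes centred. Over all unigenes 2.33% were called higher and 0.748% lower.

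**Figure D5:**
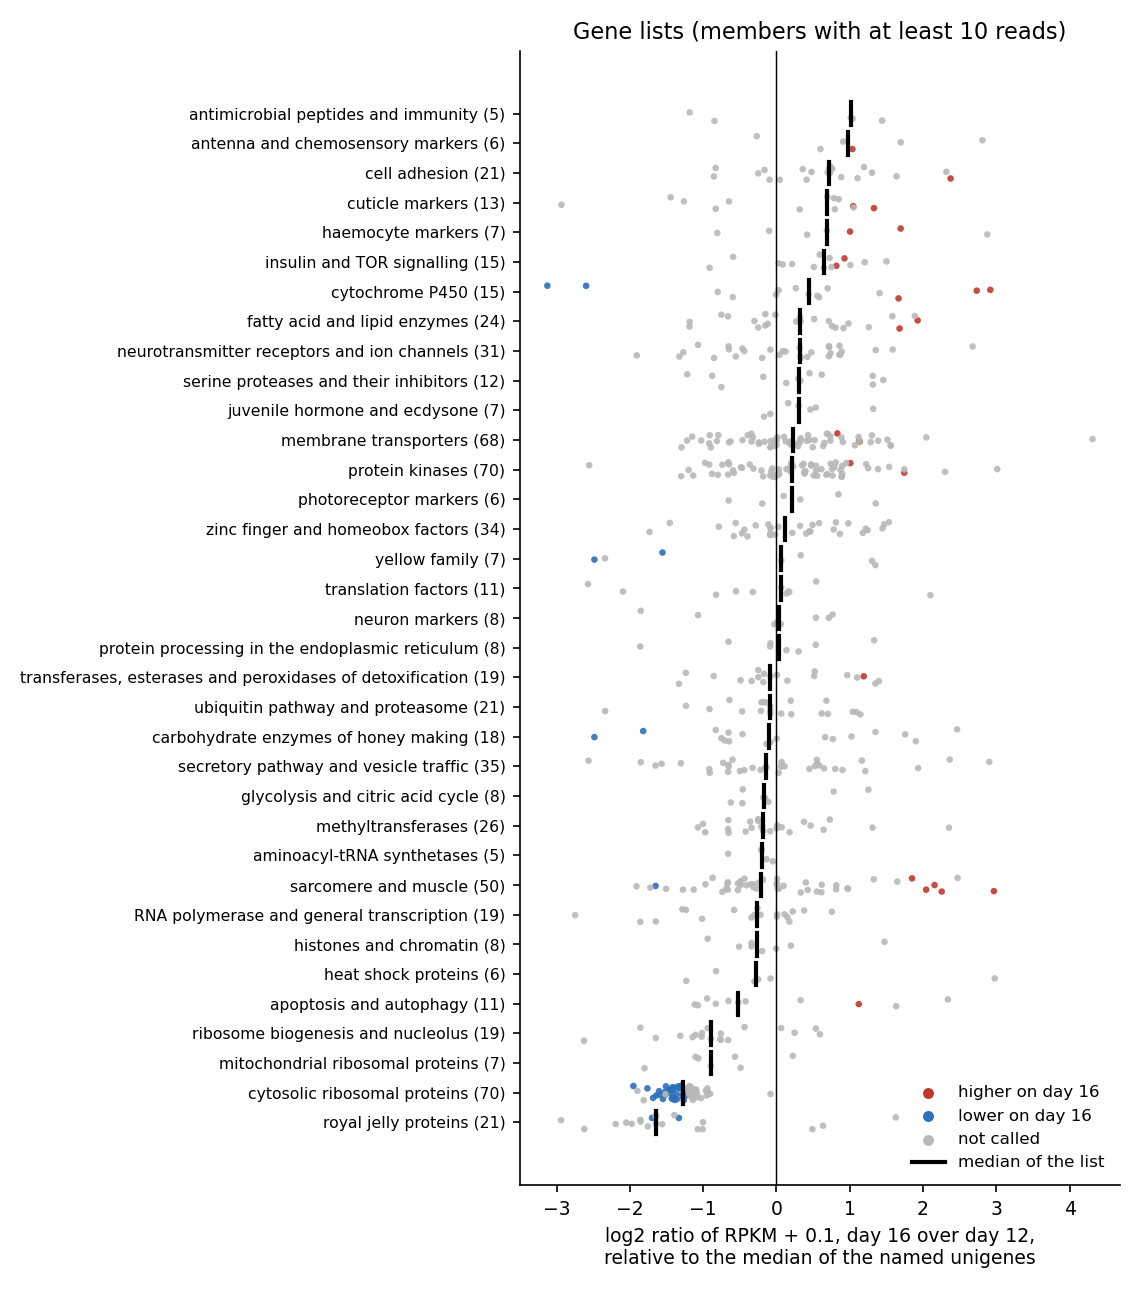
Log2 ratios of RPKM plus 0.1, day 16 over day 12, less the median over named unigenes (0.23), for lists with at least 5 members of 10 or more reads (their number in parentheses). Red points were called higher and blue points lower, bars are list medians, and the royal jelly proteins (-1.64) and cytosolic ribosomal proteins (-1.28) lie at the low end.

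Among lists of other tissues, calls were few and all higher: 1 of 23 antenna and chemosensory names, 2 of 9 haemocyte names (the scavenger receptors above), 2 of 29 cuticle names, and none of 29 neuron, 6 fat body or 11 photoreceptor names. Over all named unigenes 1.06% were called higher and 1.18% lower, and at that share lists of these sizes would hold few calls or none. Besides the laccase 2 match, the called cuticle unigene was TC20330, an endochitinase match, with 395 reads on day 16 and 120 reads on day 12, a ratio of 1.28 that was not called with length classes centred. Flexible cuticle protein 12 (TC15457), hemocytin (TC15331) and odorant binding protein 4 (TC13645) had ratios of 0.55, 0.94 and 0.83 and were not called.

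Detection in 1 library only was limited to low counts. The 1870 unigenes read on day 16 alone had at most 17 reads, and 256 of them more than 3. The 980 read on day 12 alone had at most 12 reads, and 47 of them more than 3. Of these groups, 1501 and 720 were also read on days 3, 6 or 9. A single one of them, named here after its values were seen, was called: TC24397, unnamed, with 0 reads on day 16 and 12 reads on day 12. Unigenes with an RPKM of 500 or more numbered 111 on day 16 and 142 on day 12, those from 10 to under 500 numbered 9366 on day 16 and 8568 on day 12, and those under 10 numbered 8518 on day 16 and 8395 on day 12. The 10 unigenes with the most reads took 26.3% of the unique reads on day 16 and 32.3% on day 12.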

How the data were processed

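The authors filtered the raw reads and aligned them to the DFCI Honey Bee Gene Index with SOAP2, tolerating up to 2 mismatches. The SOAP2 version was not given in the sources used here. Each deposited table lists, per unigene, the count of uniquely matching reads, the RPKM that the authors made from this count, and the coverage, which the authors give as the fraction of the length under reads, in percent. Sheets with their comparisons, such as fold changes and FDR values, were not used. Gene names came from the authors' annotation, which covers only the 7628 unigenes below 10 RPKM on day 3, and from the paper. Abundant unigenes are therefore mostly without a name, and named ones were mostly low on day 3.

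Calls used Audic and Claverie's two-sided test on the counts with Benjamini-Hochberg adjustment over all 18975 unigenes, at an FDR of 0.001 or less and a log2 ratio of 1 or more in size, as in the study. Intervals (95%, Clopper-Pearson) and the floor of 3 reads that a count of 0 allows take in counting error alone, as PCR copies are not separate molecules. List medians are of the log2 ratio, with 0.1 added to each RPKM, where a member had 10 reads or more.

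The 37 gene lists are search words in the gene names, and the members and lists were chosen with earlier results of these data known. The text could name unigenes that the paper names, the 15 highest and 15 lowest called ratios of named unigenes (50 reads or more), the 10 of highest RPKM per library, the 3 most-read members per list, called members of lists with up to 8 of them (otherwise the 8 with the most reads), and the 10 largest gains and losses in RPM, unique reads scaled to 1000000 per library. Unigenes outside this rule are marked as chosen after their values were seen. Alternatives were TMM factors and the exact test of edgeR 4.0.16, DESeq2 1.42.0 size factors, the study's mapped totals, a filter, a binomial test, fold alone, other pseudocounts and read minimums, and, added after the values were seen, leaving out 4 unigenes and centring on length classes. The scripts ran in Python 3.11.15 (scipy 1.17.1) and R 4.3.3, and the tests were first tried on simulated counts. The reference gene table matched 5 unigene identifiers and was left unused.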

Additional observations from a re-analysis of the deposited data

How the results depend on the processing

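Against 442 unigenes called higher and 142 lower, TMM factors gave 301 and 218, DESeq2's size factors 291 and 225, the study's mapped totals 1484 and 38, an assumed coefficient of variation of 0.2 between pools (edgeR) 10 and 14, and fold alone among unigenes with at least 10 reads 1660 and 680. Centring on length classes gave 188 and 210. A minimum of 10 reads gave 453 and 148, and an exact binomial test 442 and 136. Of the 44 named unigenes called higher, 33 kept the call with TMM factors, 27 with length classes centred and 3 with the assumed spread. Of the 49 called lower, 49, 49 and 2 kept it, and 8 with the mapped totals. By the mapped totals the ratio turned to 0.39 for TC12344, 0.39 for TC14580, 0.22 for TC15188, 0.034 for NP1608872 and 0.21 for TC13807, and with length classes centred it was -0.051 for TC13160. The mapped totals also count reads that match several unigenes. By the study's read statistics, such reads made up more of the day 12 library than of the day 16 library. The cause of these shifts was not tested beyond the change of scale itself. The median of the ribosomal proteins was -1.12 with length classes centred, and that of the membrane transporters turned to -0.0014 over members with at least 1 read. The royal jelly share without TC24109 and TC13222 was 0.103% on day 16 and 0.146% on day 12. No paired analysis was possible because each age has 1 library. No replicate could be left out for the same reason, so the spread between pools is unknown and every call rests on counting error in 2 libraries. Depth limits calls of unigenes with few reads, and close gene copies rest on the reads unique to each.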

Other observations

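A few unigenes without a name nearly vanished from the day 16 library. They were chosen after their values were seen. At ages 3, 6, 9, 12 and 16 days TC15858 had 409, 245, 122, 231 and 2 reads, a log2 ratio of RPKM, day 16 over day 12, of -7.29 (95% exact interval -10.3 to -5.42). TC15086 had 621, 410, 118, 368 and 9 reads over the same ages, a ratio of -5.79 (-6.93 to -4.85), and TC19246 had 230, 155, 27, 42 and 1, a ratio of -5.83. The reads on day 12 lay over 96.7% of the length of TC15858 and 52.9% of that of TC15086. TC24397 had 0 reads on day 16 and 12 on day 12, at least 5.40-fold lower on day 16 against a floor of 3 reads per library.

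The highest ratios of the comparison were those of BI511681 and TC23648, which also carry no name. At ages 3, 6, 9, 12 and 16 days BI511681 had 459, 321, 35, 35 and 1290 reads, a ratio of 4.77 (4.29 to 5.30). TC23648 had 177, 135, 15, 14 and 506 reads over the same ages, a ratio of 4.74 (3.98 to 5.62). Both were low on days 9 and 12 alone. TC15858, TC19246, BI511681 and TC23648 kept their calls when a coefficient of variation of 0.2 between pools was assumed, and TC15086 did too.

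Further unigenes without a name had large calls at higher levels. TC17549 had 3184 reads on day 16 and 500 reads on day 12, a ratio of 2.24 (2.10 to 2.38), with 28, 16 and 58 reads at ages 3, 6 and 9 days. TC14567, a transcript of 7091 bases, had 3989 reads on day 16 and 921 on day 12, a ratio of 1.68 (1.58 to 1.79), and its reads covered 99.6% of its length on day 16 and 90.2% on day 12. Nesprin-1 (NP9552421), a giant protein that links the nucleus to the cytoskeleton, had 176 reads on day 16 and 32 reads on day 12, a ratio of 2.03 (1.48 to 2.62). An unc-89 match of 8385 bases, NP9550883, had 1290 reads on day 16 and 530 on day 12, a ratio of 0.85 that was not called. A match to 10-formyltetrahydrofolate dehydrogenase, an enzyme of folate metabolism, TC13851, had 117 reads on day 16 and 39 on day 12, a ratio of 1.15 whose call was lost with length classes centred and with TMM factors (1.02, adjusted p of 0.0016 in Audic and Claverie's test). TC18017, similar to a *Drosophila* gene known by number only, had 3 reads on day 16 and 22 on day 12, a ratio of -3.31 (-5.69 to -1.57). These too were chosen after their values were seen, apart from TC17549 and TC14567.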
